A study of Mus musculus with 40 samples.

Results

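C9, C8a, C8b and C6 encode proteins of the terminal complement pathway, C2 encodes a protease of the classical and lectin pathways, and Mbl1 encodes a mannose-binding lectin that starts the lectin pathway. These 6 genes were followed in the livers of 40 C57BL/6J mice. Members were found by gene symbol among 23574 array probes, of which 12662 could be named, for 10842 genes. A single probe each was found for 5 of the 6 genes, while C8b was named by no probe here, neither by symbol nor by Entrez identifier, and was not analysed. All 5 measured genes were higher in intact males than in intact females, and C9 varied most, over a 4.94-fold range of group means.

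The 8 groups held 5 animals each, all of the inbred strain C57BL/6J on chow with 4% fat, killed at 14 weeks of age after a 12 h fast. Intact females and intact males kept their gonads, and the labels do not say whether they carried a pellet. Females were ovariectomized and males castrated at 8 weeks, and at 12 weeks each of these animals received a subcutaneous pellet built to release over 21 days. The pellet held placebo, 0.5 mg of estradiol, which titles call estrogen and which gave about 300 pg/ml in plasma, or 5 mg of dihydrotestosterone (DHT), an androgen that is not converted to estrogen, at 1 to 2 ng/ml. The liver RNA of each animal carried Cy5 and was read on 1 array against a Cy3-labelled pool of 40 livers, with no dye swap. Values below are log2 ratios of a liver to that pool, differences are those of 2 group means on the log2 scale ± SE, and a gene is called at a limma adjusted p under 0.05 over all 23574 probes. Animals carry the numbers of their labels.

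Complement proteins circulate in plasma and are made mainly by hepatocytes. Mannose-binding lectin recognises sugars on microbes and, with its proteases, splits C4 and C2 to form an enzyme that cleaves C3, as the classical pathway does through C1. After C5 is cleaved, C5b binds C6 and then C7, C8, which is built of alpha, beta and gamma chains, and several copies of C9, to form the membrane attack complex, a pore in the target membrane. C8a encodes the alpha chain of C8 and C8b the beta chain. In rodents many liver genes differ between the sexes, in large part through the pattern of growth hormone secretion, which itself depends on sex steroids.

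The promoters of the 4 measured genes that the RefSeq sequence table holds are shown because these genes moved together between intact males and the other intact and placebo groups. The table is of build GRCm38.p6 and reaches 250 bases before each start site, and only bases upstream of the gene's annotated span are printed, 5′ to 3′ on the gene's strand. Capitals mark matches to any of 6 motifs searched on both strands. C9 lies on the + strand at chr15:6445096-6445345, C8a on the - strand at chr4:104876488-104876648, C6 on the + strand at chr15:4726960-4727066, and Mbl1 on the + strand at chr14:41151206-41151455.
C9: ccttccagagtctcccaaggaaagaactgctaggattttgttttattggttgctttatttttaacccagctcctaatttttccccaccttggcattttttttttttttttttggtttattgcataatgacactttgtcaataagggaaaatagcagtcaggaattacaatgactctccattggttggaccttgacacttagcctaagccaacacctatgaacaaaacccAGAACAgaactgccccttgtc
C8a: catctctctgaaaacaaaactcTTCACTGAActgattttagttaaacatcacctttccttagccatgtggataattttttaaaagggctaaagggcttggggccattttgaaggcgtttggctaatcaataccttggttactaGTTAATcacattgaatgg
C6: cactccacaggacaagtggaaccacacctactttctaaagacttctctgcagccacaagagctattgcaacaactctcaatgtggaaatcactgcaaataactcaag
Mbl1: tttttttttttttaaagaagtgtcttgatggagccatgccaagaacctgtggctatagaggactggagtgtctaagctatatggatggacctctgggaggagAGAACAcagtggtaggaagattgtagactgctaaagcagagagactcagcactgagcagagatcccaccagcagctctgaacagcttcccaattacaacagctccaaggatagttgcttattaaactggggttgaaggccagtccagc
The motifs were TTCNNNGAA, bound by STAT5, the androgen receptor half-site AGAACA, the HNF1 half-site GTTAAT and, as exact matches to their consensus, the full androgen response element, the HNF4 element of direct repeats and the estrogen response element. The half-site is part of the full androgen element. C9 held the androgen receptor half-site at -21 to -16 and Mbl1 at -148 to -143, a match that 19.0% of 32851 windows of 300 bases hold. C8a held a STAT5 match, TTCACTGAA, at -228 to -220, as 8.3% of windows do, and an HNF1 half-site at -107 to -102, as 7.1% do. Positions count back from the start site of the table. The full androgen element, HNF4 and estrogen motifs occur in 0.00913%, 0.0396% and 0.07% of windows. The C6 stretch held none of the 6 motifs. These matches describe letters only.

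The Y-linked genes Eif2s3y and Kdm5d were lower in 20 of 20 females than in every male, so that all libraries matched the sex of their labels. Among hepatocyte markers, 6 of 9 were measured, and their mean ratio stayed between -0.30 and 0.35 in every animal. Array medians ran from -0.045 to 0.036 and the residual SD had a median of 0.146 over probes, both on the log2 scale, while signal over background was not analysed here. Animals 53 and 61 stood apart within the DHT groups. Hsd3b5, a male-biased steroid dehydrogenase gene that had lain between -4.32 and -3.60 on placebo, was at -3.87 in animal 53 against -0.22 to 1.38 in the other ovariectomized females on DHT. In animal 61 it was at -3.19 against 1.20 to 2.41 in the other castrated males on DHT. Both had the lowest C9 of their group, so C9 is given with and without them in comparisons with DHT, and other members in places. That choice was made after the values were seen, and since Hsd3b5 itself moves with DHT, the values without these animals are a description. In whole liver, fewer cells of a type and less RNA per cell cannot be told apart.

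Intact females had less transcript of all 5 measured genes than intact males, and the gap was widest for C9, the pore-forming component. In intact males C9 was at 1.17, 1.43, 1.11, 0.21 and 1.61 in animals 8 to 12. In intact females it was at -0.48, -0.79, -1.04, -1.30 and -0.84 in animals 1 to 5. Every male lay above every female, and animal 11 was the lowest male. C9 was 3.99-fold lower in females, a difference of -2.0 ± 0.32 with a limma adjusted p of 3.03e-05.

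C8a, the alpha chain of C8, was the next in size. In intact males it was at 0.09, 0.85, 0.09, 0.30 and 0.13, and in intact females at -0.53, -1.01, -0.59, -1.05 and -0.45. The groups did not overlap, and animal 9 was the highest male. C8a was 2.02-fold lower in females (-1.02 ± 0.19, adjusted p of 0.000336).

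C6, which starts the assembly on C5b, differed little in size but with a narrow spread. It was at 0.29, 0.35, 0.24, 0.19 and 0.30 in intact males and at -0.21, 0.01, 0.06, -0.02 and -0.06 in intact females. All males lay above all females, and the difference was -0.32 ± 0.05, or 1.25-fold, with an adjusted p of 7.71e-05.

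For C2, which supplies the protease of the C3-cleaving enzyme, intact males were at 0.22, 0.34, 0.23, -0.15 and 0.40 and intact females at -0.27, -0.54, -0.33, -0.42 and -0.19. The groups did not overlap, with animal 11 again the lowest male. C2 was 1.47-fold lower in females (-0.56 ± 0.09, adjusted p of 4.75e-05). Mbl1 was at 0.26, 0.61, 0.25, 0.32 and 0.38 in intact males and at -0.06, 0.03, 0.34, -0.25 and -0.16 in intact females. Of the females, 4 of 5 lay below every male and animal 3 lay among the males. The difference of -0.38 ± 0.11, or 1.3-fold, had a limma adjusted p of 0.0176. That call was lost without animal 4 (-0.32, adjusted p of 0.0717), animal 5 (-0.35, 0.0576) or animal 9 (-0.32, 0.0597), and with quantile normalization (-0.33, 0.058) or only the compared groups in the fit (-0.38, 0.0783).

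In all, 5 of 5 members were lower in intact females, where 8.69% of all probes were called and 5.36% were lower. Without overlap between the groups were 4 members, against 6.74% of probes. The members' median difference was -0.56 and that of all probes 0.01. The members were chosen with earlier results of these data known, so member counts here and below are descriptions and not tests.

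**Figure D1:**
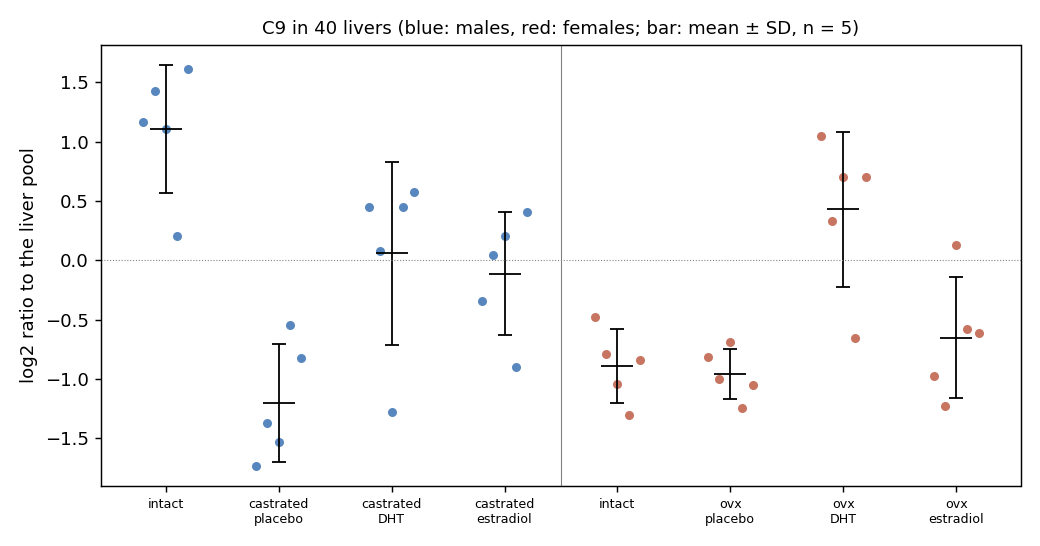
Log2 ratio of C9 to the liver pool in each of 40 livers (points; males blue, females red) by group, with the mean ± SD of 5 animals (black). Intact males lie at 0.21 to 1.61, both placebo groups at or below -0.54, and animal 61 at -1.28 sits apart from the other castrated males on DHT.

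Castration lowered C9, C8a, C6 and Mbl1. C9 was at -1.73, -1.37, -1.53, -0.54 and -0.82 in castrated males on placebo, animals 24 to 28, and none reached the intact males. It was 4.94-fold lower than in intact males (-2.30 ± 0.32, limma adjusted p of 2.34e-06). C8a, at -0.43, -1.02, -0.48, -0.42 and -0.81, was 1.9-fold lower (-0.92 ± 0.19, 0.000905), and its groups did not overlap.

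C6 was at 0.10, 0.08, 0.06, -0.03 and -0.05 after castration, 1.18-fold lower than in intact males (-0.24 ± 0.05, adjusted p of 0.00214). Mbl1, at -0.19, -0.26, 0.01, 0.05 and -0.35, was 1.43-fold lower (-0.51 ± 0.11, adjusted p of 0.000933). Neither gene's castrated animals reached the intact range. C2 was at 0.00, -0.19, -0.08, 0.12 and -0.01, overlapping the intact males through animal 11. Its difference of -0.24 ± 0.09 did not pass, with an adjusted p of 0.0802, and passed without animal 11 (-0.33, 0.0081) and with array weights (-0.35, 0.0022). Lower were 4 of 5 members, against 12.1% of probes called and 6.92% lower, and 4 did not overlap, against 8.25% of probes.

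After ovariectomy limma called none of the members. On placebo, ovariectomized females 16 to 20 had C9 at -0.81, -1.0, -0.69, -1.24 and -1.05, within the range of intact females. The difference was -0.07, with a 95% interval of -0.71 to 0.58, and for C8a it was 0.11 (-0.28 to 0.50), for C6 0.02 (-0.09 to 0.13) and for Mbl1 0.01 (-0.21 to 0.22). The largest difference among the 5 was that of C2. It was at 0.15, 0.04, 0.04, -0.14 and -0.12 after ovariectomy, above all intact females. The difference of 0.34 ± 0.09 (95% interval 0.16 to 0.53) had a limma adjusted p of 0.271. By limma 0 of 5 members were called, against 0.0339% of all probes. Unadjusted, 1 member and 5.05% of probes had a limma p under 0.05. Groups without overlap were found for 1.11% of probes. The clock index described below ran from -0.918 to -0.557 in intact females and from -0.462 to 0.247 on placebo, without overlap, so that index and group cannot be told apart. With it as a covariate C9 was at 0.21, C8a at 0.56 and C6 at 0.14, each with a limma adjusted p of 1.0.

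For all 5 genes gonadectomy acted differently in females and males, in a test of the difference itself that uses both intact and both placebo groups. The change in females minus that in males was 2.23 ± 0.45 for C9 (limma adjusted p of 0.00209), 1.03 ± 0.27 for C8a (0.0194), 0.59 ± 0.13 for C2 (0.00514), 0.52 ± 0.15 for Mbl1 (0.0384) and 0.26 ± 0.08 for C6 (0.0404). Positive and called were 5 of 5 members, against 4.4% of probes called and 2.78% positive. Quantile normalization left 2 calls, C9 and C2, with C8a at 0.94 (0.072), Mbl1 at 0.49 (0.079) and C6 at 0.22 (0.148). Leaving out 1 animal removed the C6 call for animals 1, 4, 5, 8, 9, 12, 16, 17, 20, 27 and 28 (0.22 to 0.27, adjusted p of 0.0501 to 0.0887). The Mbl1 call was lost without animals 1, 2, 4, 5, 9, 12, 16, 17, 19, 24, 25 or 28 (0.46 to 0.53, 0.0517 to 0.0861). With only these groups in the fit C6 was at 0.26 (0.0748), and with the clock index described below Mbl1 was at 0.53 (0.0643). These values share their animals with the intact and castration comparisons.

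Without gonads, males and females on placebo were not told apart at these genes. The female minus male difference was 0.24 for C9 (95% interval -0.41 to 0.89), 0.02 for C8a (-0.37 to 0.40), -0.06 for C6 (-0.17 to 0.05), 0.03 for C2 (-0.16 to 0.21) and 0.14 for Mbl1 (-0.08 to 0.35). By limma 0 of 5 were called, against 0.0679% of all probes. Unadjusted, 0 members and 5.42% of probes had a limma p under 0.05.

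**Figure D2:**
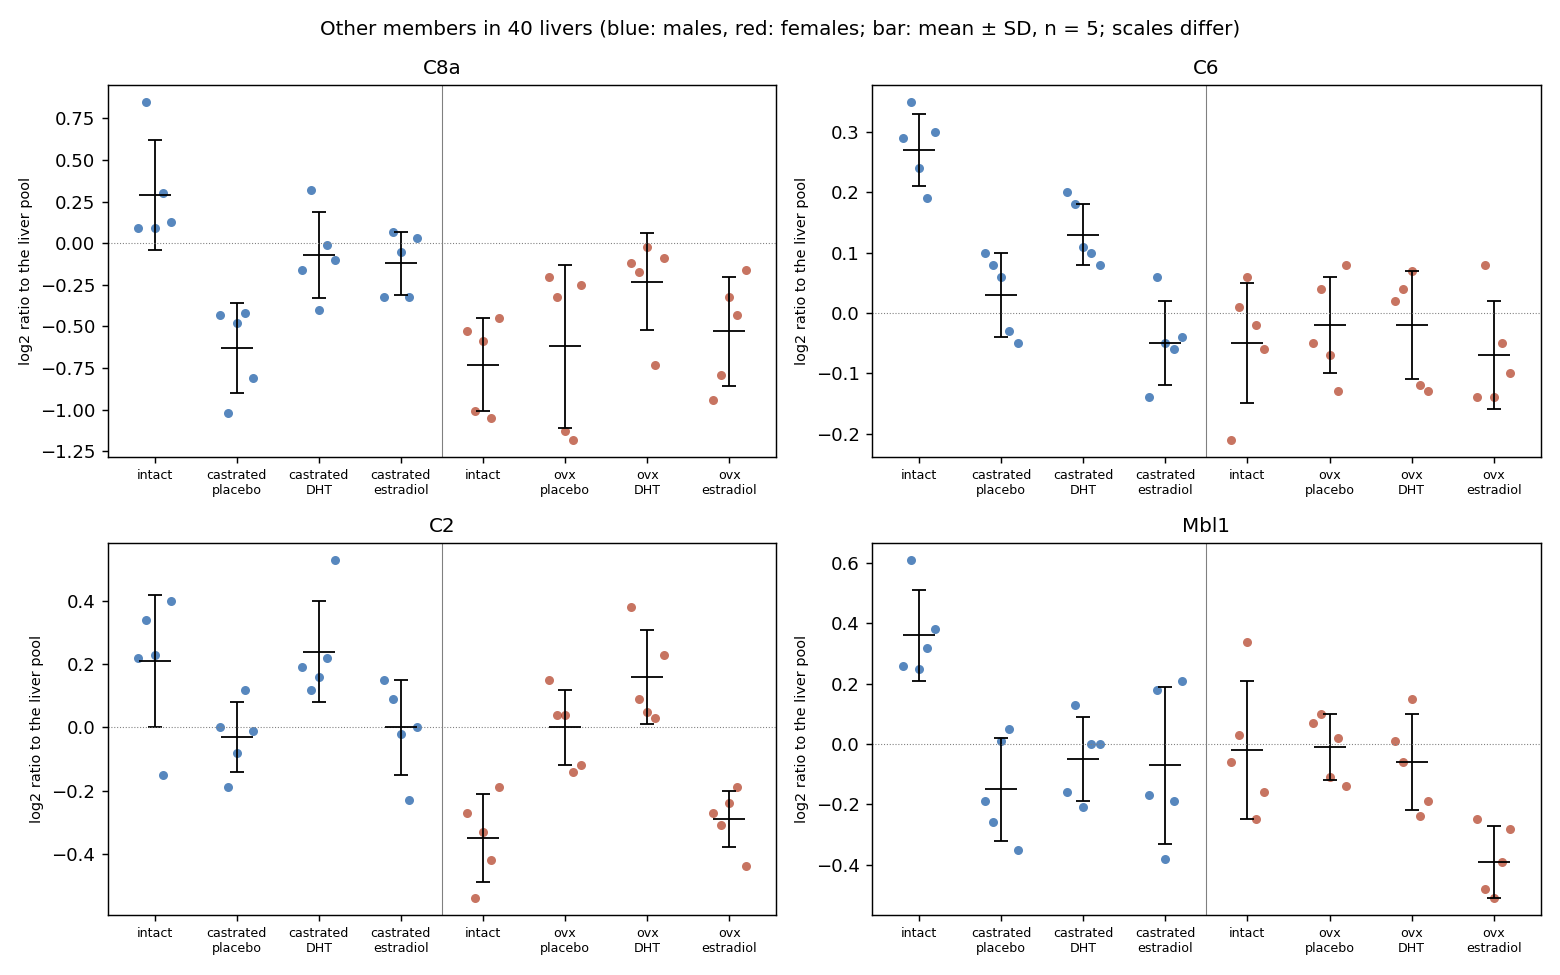
Log2 ratios of C8a, C6, C2 and Mbl1 to the liver pool in each of 40 livers (points; males blue, females red), with the mean ± SD of 5 animals (black). Intact males have the highest mean for C8a, C6 and Mbl1, and castrated males on DHT have the highest for C2, at 0.24 against 0.21.

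DHT raised C9 in both sexes. Castrated males on DHT, animals 59 to 63, were at 0.45, 0.08, -1.28, 0.45 and 0.58. Of these, 4 of 5 lay above every placebo animal, while animal 61 lay among them. C9 was 2.39-fold higher than on placebo (1.25 ± 0.32, limma adjusted p of 0.0208). Without animals 53 and 61 the difference was 1.59, with an adjusted p of 0.00019. The call was lost without animal 24 (1.12, 0.0732), 25 (1.21, 0.0501), 59 (1.15, 0.0818) or 62 (1.16, 0.0761), and with only the compared groups in the fit (1.25, 0.109).

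In ovariectomized females on DHT, animals 50 to 54, C9 was at 1.05, 0.33, 0.70, -0.65 and 0.70. All lay above every ovariectomized female on placebo, animal 53 only just, a separation that 4.5% of probes showed. C9 was 2.61-fold higher (1.38 ± 0.32, limma adjusted p of 0.021), and 1.65 without animals 53 and 61 (0.000197). That call was lost without animal 19 (1.31, 0.0636), 50 (1.23, 0.0889), 52 (1.31, 0.065) or 54 (1.32, 0.0736). The female minus male DHT effect was 0.13 for C9, with a 95% interval of -0.78 to 1.04, so that a sizeable difference between the sexes would not have been detectable. Without animals 53 and 61 it was 0.07 (adjusted p of 0.997). For that contrast limma called 0.0% of probes and 0 of 5 members, with 0 members and 1790 probes at an unadjusted p under 0.05.

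The other members did not pass with DHT. In castrated males C8a was at -0.16, 0.32, -0.40, -0.01 and -0.10 on DHT, above every placebo animal, with a difference of 0.56 ± 0.19 and a limma adjusted p of 0.0978. It passed without animals 53 and 61 (0.65, 0.046), with array weights (0.60, 0.0131) and with the clock index described below (0.82, 0.0234). The index ran from -0.433 to 0.352 on placebo and from 0.402 to 0.456 on DHT. Without overlap, index and group cannot be told apart. C2 was at 0.19, 0.12, 0.16, 0.22 and 0.53, without overlap although the nearest animals of both groups lay at 0.12, and differed by 0.28 ± 0.09 (0.0865). It passed with array weights (0.27, 0.0146). C6 differed by 0.10 (0.397) and Mbl1 by 0.10 (0.783). Thus 1 of 5 members was called in castrated males, against 3.47% of probes, and 2 did not overlap, against 4.06%.

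In ovariectomized females 1 of 5 was called as well, against 1.15% of probes. There C8a differed by 0.39 (0.437), C2 by 0.16 (0.527) and Mbl1 by -0.05 (0.872), and C6 by less than its SE of 0.05 (0.996). Here too the clock index did not overlap, at -0.462 to 0.247 on placebo and 0.289 to 0.655 on DHT. In both sexes this limit holds for C9 as well. The placebo animals of each sex serve in the DHT and the estradiol comparison alike.

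Castrated males on DHT had less C9 and Mbl1 than intact males. C9 was 2.07-fold lower on DHT than in intact males (-1.05 ± 0.32, limma adjusted p of 0.0404), with overlapping groups. Mbl1, at -0.16, 0.13, -0.21, 0.00 and 0.00 on DHT, lay below all intact males, 1.33-fold lower (-0.41 ± 0.11, 0.015), where 4.13% of probes did not overlap. C8a differed by -0.36 (0.263), C6 by -0.14 (0.112) and C2 by 0.04 (0.854). Lower were 2 of 5 members, against 6.32% of probes called and 3.83% lower.

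Both calls depended on single animals and on the fit. Without animals 53 and 61 the C9 difference was -0.72 (limma adjusted p of 0.139) and that of Mbl1 -0.37 (0.0556). C9 lost its call without any of animals 8, 9, 10, 12, 60 and 61 (-1.05 to -0.72, 0.0744 to 0.195), and Mbl1 without animal 9 (-0.35, 0.0569) or 61 (-0.37, 0.057). With only the compared groups C9 had an adjusted p of 0.172 and Mbl1 of 0.0599, and with quantile normalization -0.74 (0.251) and -0.35 (0.0938). A clock index, the mean log2 ratio of 7 circadian genes such as Per1 and Dbp minus that of 4 genes of the opposite arm such as Clock, was -0.496 to -0.203 in intact males and 0.402 to 0.456 on DHT, without overlap. With the index as a covariate C9 was at -0.76 (0.368) and Mbl1 at -0.40 (0.185). The index and the group cannot be told apart here.

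**Figure D3:**
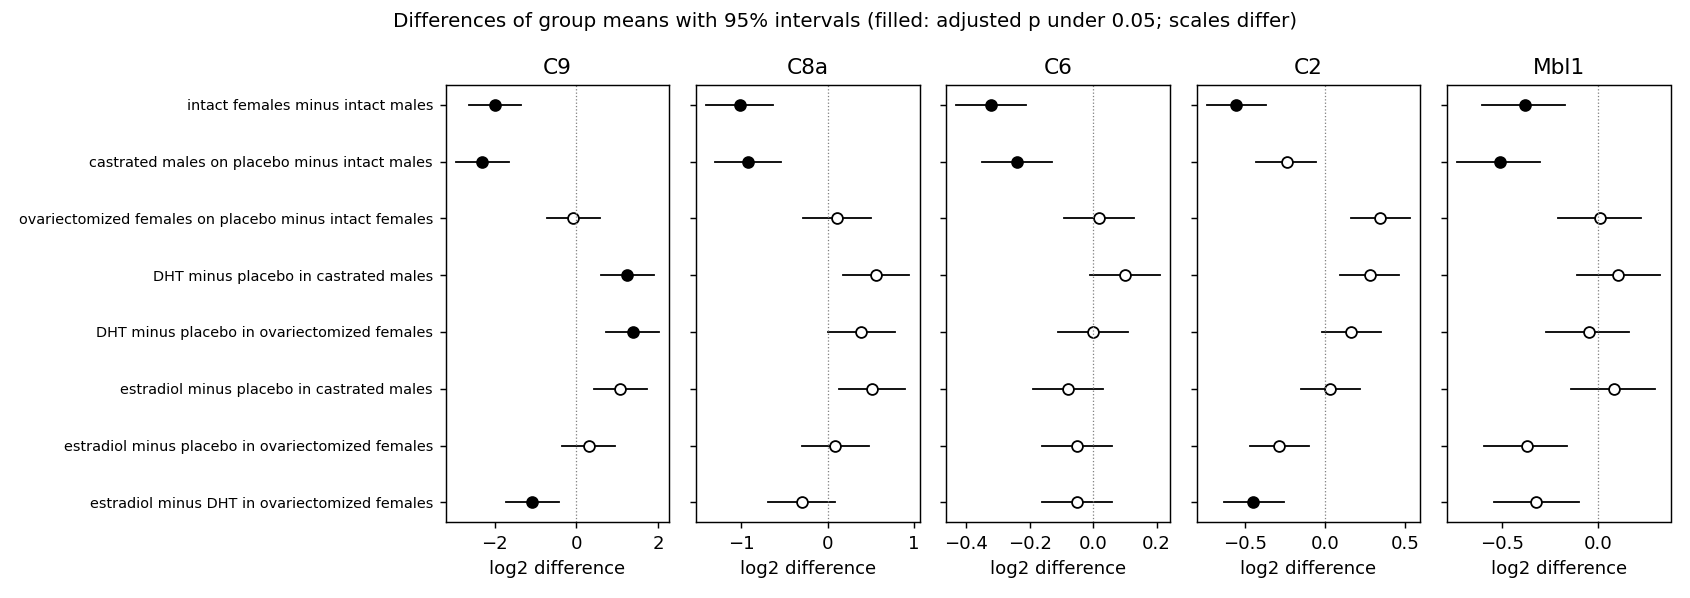
Log2 differences of group means (points) with 95% intervals (lines) for 5 genes in 8 comparisons, filled where the adjusted p was under 0.05. The intact difference is negative and filled for all 5 genes, while DHT against placebo is filled for C9 alone.

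Estradiol left no call against placebo, although several groups were separate. Castrated males on estradiol, animals 41 and 43 to 46, had C9 at -0.34, 0.05, 0.21, -0.90 and 0.41, with 4 of 5 above every placebo animal. The difference of 1.08 ± 0.32 (95% interval 0.44 to 1.73) had a limma adjusted p of 0.0863. C8a, at -0.32, 0.07, -0.05, -0.32 and 0.03, lay above all placebo animals and differed by 0.51 ± 0.19 (0.208), where 2.87% of probes did not overlap. By limma 0 of 5 were called, against 1.18% of probes. Unadjusted, 2 members and 13.7% of probes had a limma p under 0.05. Differences of C2, Mbl1 and C6 were 0.03, 0.08 and -0.08. Array weights gave 1 call.

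In ovariectomized females C2 and Mbl1 lay lower on estradiol than on placebo, again without a call. Mbl1 was at -0.25, -0.48, -0.51, -0.39 and -0.28 in animals 33 to 37, below every placebo animal (-0.37 ± 0.11, limma adjusted p of 0.0919). C2 was at -0.27, -0.31, -0.24, -0.19 and -0.44, also below all of them (-0.29 ± 0.09, 0.143). C9 was spread from -1.23 to 0.13 and differed by 0.31 (95% interval -0.34 to 0.95). By limma 0 of 5 were called, against 0.632% of probes. Unadjusted, 2 members and 10.8% of probes had a limma p under 0.05. Groups without overlap were found for 2 of 5 members and 1.87% of probes. Array weights gave 2 calls.

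Between the sexes the estradiol effect was not shown to differ. The female minus male effect was -0.78 for C9 (95% interval -1.69 to 0.14), -0.43 for C8a (-0.98 to 0.12), -0.45 for Mbl1 (-0.76 to -0.14), -0.32 for C2 (-0.58 to -0.05) and 0.03 for C6 (-0.12 to 0.19). Limma called 0 of 5 members and 0.0% of probes, with 2 members and 973 probes at an unadjusted p under 0.05. The smallest adjusted p of the members was 0.961.

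Set side by side in ovariectomized females, estradiol and DHT left different levels of C9 and C2. C9 was 2.11-fold lower on estradiol (-1.08 ± 0.32, limma adjusted p of 0.0484), with overlapping groups, and -1.35 (0.00212) without animals 53 and 61. C2, at 0.38, 0.09, 0.05, 0.03 and 0.23 on DHT, was above every animal on estradiol and 1.36-fold lower on estradiol (-0.45 ± 0.09, 0.00354). Mbl1 did not overlap either but missed the threshold (-0.32 ± 0.11, 0.0913), which it passed with array weights (-0.29, 0.0339), C8a differed by -0.30 (0.50) and C6 by -0.05 (0.764). Lower were 2 of 5, against 3.79% of probes called and 1.59% lower, and 2 did not overlap, against 3.51% of probes.

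The C9 call in this comparison was lost without any of animals 33, 34, 36, 37, 50, 51, 52 and 54 (-1.10 to -0.92, limma adjusted p of 0.0768 to 0.155). It was also lost with arrays centred on their median (-1.07, 0.0593), only the compared groups (-1.08, 0.141) and the clock index (-1.26, 0.192), which did not overlap between the groups either, at 0.289 to 0.655 on DHT and -0.349 to 0.221 on estradiol. With the index C2 was at -0.44 (0.0661). Markers of macrophages differed in this comparison as well. Of 11 Kupffer cell and macrophage markers, 10 were called higher on estradiol, against 3.79% of all probes called, with a median difference of 1.17. Timd4 was among them at 1.02, but at 0.15 by another probe. The mean ratio of the markers ran from -0.29 to 1.69 on estradiol and from -0.81 to -0.32 on DHT. Its part in the C9 and C2 differences was not tested. In the intact and castration comparisons 0 of the 11 were called. Against placebo in ovariectomized females no marker was called on estradiol either. Yet their mean ratio was 0.55 on estradiol (-0.29 to 1.69 over animals) and -0.24 on placebo (-0.44 to 0.07). The part of these markers in the C2 and Mbl1 differences from placebo was not tested.

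In castrated males estradiol and DHT gave no call among the 5, against 0.708% of probes called. At an unadjusted limma p under 0.05 were 2 members and 2957 of 23574 probes. C9 differed by -0.17 (95% interval -0.82 to 0.48), C8a by -0.05, Mbl1 by -0.02 and C2 by -0.25 (limma adjusted p of 0.236). Without animals 53 and 61 the C9 difference was -0.50 (0.518), that of C6 -0.19 (0.139) and that of C2 -0.27 (0.265). C6, at 0.20, 0.18, 0.11, 0.10 and 0.08 on DHT and at -0.14, 0.06, -0.05, -0.06 and -0.04 on estradiol, did not overlap (-0.18 ± 0.05, 0.118), as 1.45% of probes did not. It passed with array weights (-0.21, 0.0074). Doses of the hormones differ, so these differences compare pellets.

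Ordered by group mean, C9 ran from intact males (1.11 ± 0.54, SD, n = 5) through ovariectomized females on DHT (0.43 ± 0.65), castrated males on DHT (0.06 ± 0.77), castrated males on estradiol (-0.11 ± 0.52), ovariectomized females on estradiol (-0.65 ± 0.51), intact females (-0.89 ± 0.31) and ovariectomized females on placebo (-0.96 ± 0.21) to castrated males on placebo (-1.20 ± 0.50). Every neighbouring pair in this order overlapped. C8a ran from 0.29 ± 0.33 in intact males to -0.73 ± 0.28 in intact females, C6 from 0.27 ± 0.06 in intact males to -0.07 ± 0.09 in ovariectomized females on estradiol. C2 ran from 0.24 ± 0.16 in castrated males on DHT to -0.35 ± 0.14 in intact females, and its neighbours overlapped, as those of C8a and C6 did. For Mbl1 the intact males (0.36 ± 0.15) stood clear of the next group, ovariectomized females on placebo (-0.01 ± 0.11), and the lowest were ovariectomized females on estradiol (-0.39 ± 0.12).

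Within groups, animals with more C9 tended to have more C2. Over the 40 livers, each set against its group mean, C9 and C2 had Pearson's r of 0.58 (permutation p of 0.0008, adjusted p of 0.008 over 10 pairs of members) and Spearman's rho of 0.55 (0.00067, adjusted 0.0067). Without the 2 animals farthest from the median r was 0.60. C8a and Mbl1 had r of 0.45 (permutation p of 0.0032, adjusted 0.016), rho of 0.42 (0.00797, adjusted 0.0398), and r of 0.48 without 2 animals. C9 and C8a, both of the terminal pathway, had r of 0.41 (permutation p of 0.00832, adjusted 0.0277), rho of 0.37 (0.0213, adjusted 0.0709) and r of 0.29 without the 2 farthest animals.

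Of the 10 pairs 8 were positive, and 3 had an adjusted Pearson p under 0.05. Between group means, C9 and C8a were closest, with r of 0.941 over 8 groups, and the lowest pair was C2 and Mbl1 with 0.554. All values of an animal come from 1 array and share its pool.

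**Figure D4:**
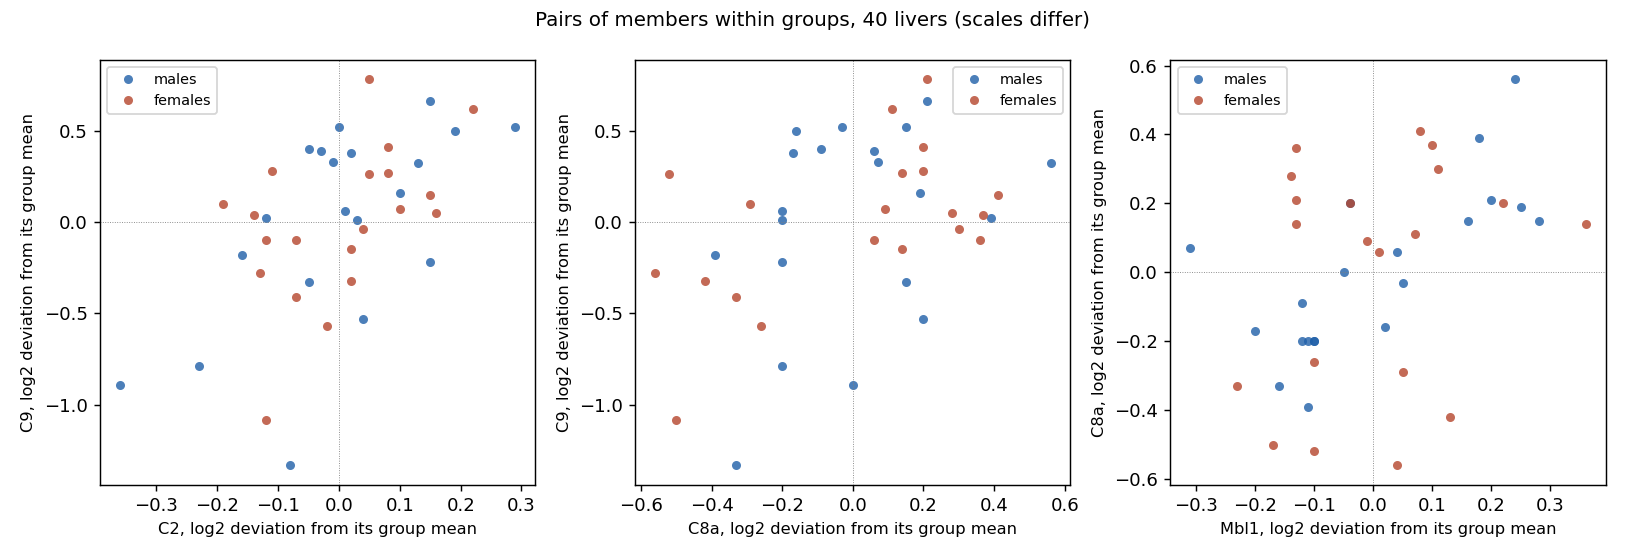
Deviation of each of 40 livers from its group mean (log2; males blue, females red) for C9 against C2 and C8a, and for C8a against Mbl1. C9 and C2 rise together with r of 0.58, C8a and Mbl1 with 0.45, and C9 and C8a with 0.41.

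Between intact animals and after castration, other complement genes were called about as often as probes in general. Of 54 listed complement genes 35 were measured, 30 besides the 5 members. In intact females 1 of the 30 was higher, the lectin pathway collectin gene Colec11 (0.53 ± 0.09, limma adjusted p of 0.000121), and 1 lower, the regulator gene Cd46 (-0.41, 0.0358), with a median of -0.08, where 8.69% of all probes were called. After castration Colec11 rose (0.32, 0.0198), while the ficolin gene Fcnb (-0.24, 0.0144) and the regulator gene Clu (-0.30, 0.0381) fell, with a median of -0.10, where 12.1% of all probes were called. In the terminal pathway 4 of 7 genes were measured, and Hc, which encodes C5, was at -0.35 between intact animals (0.0782) and was called in neither comparison. The classical list had 7 of 11 measured genes, the lectin list 8 of 8, the alternative and central list 1 of 4, regulators 10 of 16 and receptors 5 of 8.

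With DHT in castrated males 0 of the 30 were called, against 3.47% of all probes. In ovariectomized females, where 1.15% of all probes were called, Masp1, a protease gene of the lectin pathway, was higher (0.41 ± 0.09, limma adjusted p of 0.0204). On estradiol against DHT in ovariectomized females, where 3.79% of all probes were called, 6 of the 30 were higher and 0 lower. These were C1qc (1.25), C1qa (1.17) and C1qb (0.51) of the C1q subunits, Fcna (0.92), the receptor gene Vsig4 (1.02, another probe 0.88) and the regulator gene Cd55 (0.92). C1qa, C1qb, C1qc and Vsig4 are also among the macrophage markers above. For the gonadectomy effect in females minus that in males, where 4.4% of all probes were called, Cd46 was at 0.60 and Colec11 at -0.45.

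Other liver plasma proteins did not follow the members as lists. Of all probes, 8.69% were called between intact animals, 12.1% after castration and 3.47% with DHT in castrated males. Of 14 measured of 20 coagulation genes, F7 was higher in intact females (0.37, limma adjusted p of 0.0288), and F7 (0.45), F10 (0.29) and F8 (0.22) rose after castration, with none lower and 0 called with DHT in castrated males. Of 18 measured of 19 acute phase genes, Hamp (1.16) and Lbp (0.38) were higher in intact females, and Serpina3n (0.84, another probe -0.01) and Itih4 (0.56) rose after castration. Of 20 measured of 23 genes of liver transcription and hormone signalling, 0 were called between intact animals. After castration Foxa1, a liver transcription factor gene, fell by 0.79 ± 0.13 (4.33e-05) and Cux2, a female-biased repressor gene, rose by 1.14 (0.0124).

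Some markers of cell types were called in these comparisons, where 8.69% of all probes were called between intact animals and 12.1% after castration. The hepatocyte markers Ttr (0.57) and Serpina1a (-0.30) were called between intact animals and Serpina1a (-0.35) after castration. Of 6 stellate cell and fibroblast markers, Reln (0.46 and 0.42) and Acta2 (0.40 and 0.35) were higher in intact females and in castrated males than in intact males, and Col1a2 (-0.32, another probe 0.18) was lower after castration. Of 9 lymphocyte markers Cd3d (0.26 and 0.24) and Cd2 (0.49 and 0.62) were higher in both, as was Tek (0.21 and 0.20) of 7 endothelial markers. Tek was called lower than on placebo in castrated males on DHT (-0.23) and on estradiol (-0.24). Lyve1, another endothelial marker, was called higher with DHT in ovariectomized females (0.54), where 1.15% of all probes were called. The neutrophil gene Elane, 1 of 5, was lower after castration (-0.15), and 0 of 2 cholangiocyte markers were called. Their part in the members' differences was not tested.

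By likeness of pattern over the 8 group means, among 1772 probes whose means spanned at least 0.5 log2, the 3 genes closest to C9 were Mtmr1 (Pearson's r of 0.989), Tpmt (0.985) and Cd248 (0.984). Closest to C8a were Zyg11a (0.984), Aox3 (0.975) and Omd (0.968), and to C6 Olfr800 (0.955), Slc29a4 (0.952) and 2700081O15Rik (0.948). Closest to C2 were Fitm1 (0.926), Gas2 (0.919) and Slc2a5 (0.899), and to Mbl1 F2r (0.948), Adam18 (0.942) and Cpeb2 (0.938). Spearman's rho was only 0.381 for F2r, 0.619 for Cpeb2 and 0.738 for Slc2a5, and 0.833 or more for the other genes named. These are descriptions over 8 points that share 1 pool.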

How the data were processed

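Ratios were deposited by the authors as 1 value table of 40 arrays, read here as log10 ratios, without missing values, and 29 values lay at the limit of 2 in size. Background correction, normalization and centring by the authors are not stated in what was used here, and scale and direction were taken from the values and the dyes. Read as log10 of Cy5 over Cy3, the male group means of Eif2s3y were 1.74- to 2.15-fold over the pool, near the 2-fold that a pool of equal parts of both sexes allows.

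Values were converted to log2. All 40 arrays entered 1 limma model of 8 group means (lmFit and eBayes, limma 3.58.1, R 4.3.3), with 32 residual and 3.42 prior degrees of freedom, and p-values, two-sided, were Benjamini-Hochberg adjusted over 23574 probes in each of 14 comparisons. The fit was tested on simulated data. The platform annotation named the probes, and a name was kept if RefSeq's mouse genes include their Entrez identifier, and a gene with several probes was represented by the one with the largest SD.

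The members, the gene lists and the rules were chosen with earlier results of these data known. The text names the members and the 3 genes most like each member in pattern. From each list it names up to 4 called genes for intact animals, castration and DHT in castrated males. Of list genes called in further comparisons it names some. Labels describe separate animals and give no batch, slide or date, so none was tested. Alternatives were quantile normalization, median centring, array weights, named probes only, a clock index, only the compared groups, each animal left out, and, added after seeing the data, both DHT animals with low Hsd3b5 left out. Depth is unknown, and precision is limited by the number of arrays.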

Additional observations from a re-analysis of the deposited data

Results flagged for a closer look

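Within groups of 5, the gap of 1 animal to its nearest neighbour passed Dixon's critical value of 0.71, as a share of the group's range, in 4 of 40 groups tested, where chance gives about 1 in 20. These were C9 in animal 61, a castrated male on DHT, at -1.28 with a gap of 0.73, and C8a in animal 53, an ovariectomized female on DHT, at -0.73 with a gap of 0.796. C8a in animal 9, an intact male, was at 0.85 with a gap of 0.73, and C2 in animal 63, a castrated male on DHT, was at 0.53 with a gap of 0.765. Animals 53 and 61 are those with low Hsd3b5.

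The effect of gonadectomy differed between females and males in the test of the difference itself, at 2.23 for C9, 1.03 for C8a, 0.59 for C2, 0.52 for Mbl1 and 0.26 for C6. The call changed in 13 of 26 alternatives for C6 and 14 of 26 for Mbl1. Only C9 and C2 kept it with quantile normalization.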

How the results depend on the processing

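No called difference of a member changed its sign under the alternatives run, while some that were not called did. C9, C8a, C6 and C2 between intact animals and C9, C8a, C6 and Mbl1 after castration kept their calls under every alternative run. Between intact animals the clock index did not overlap, at -0.918 to -0.557 in females and -0.496 to -0.203 in males. There the index cannot be told apart from the group. Numbers of members called changed as follows, and the cause was not tested. Castration gave 5 with array weights, and intact animals gave 4 with quantile normalization and with only the compared groups. Quantile normalization gave 2 for the gonadectomy effect, for which the clock index and only the compared groups each gave 4, and 0 for castrated males on DHT against intact males. For the latter the clock index, only the compared groups and leaving out animals 53 and 61 each gave 0. For DHT in castrated males there were 3 with array weights, 2 with the clock index, 2 without animals 53 and 61 and 0 with only the compared groups. Estradiol against DHT in ovariectomized females gave 1 with median centring, 3 with array weights, 0 with the clock index and 1 with only the compared groups. Array weights gave 1 for estradiol in castrated males, 2 for it in ovariectomized females and 1 for estradiol against DHT in castrated males. Leaving out 1 animal gave 4 to 5 for intact animals and for castration, 3 to 5 for the gonadectomy effect, 0 to 1 for DHT in either sex, 1 to 2 for estradiol against DHT in ovariectomized females and 0 to 2 for castrated males on DHT against intact males.

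Counts of all probes moved by over 1.5 times. Leaving out 1 animal and the other alternatives gave 1455 to 2604 and 1249 to 5443 for 2048 between intact animals, 1976 to 3687 and 1645 to 7762 for 2856 after castration, 778 to 1243 and 530 to 3007 for 1038 in the gonadectomy effect, 335 to 1115 and 260 to 3801 for 819 with DHT in castrated males, 89 to 443 and 162 to 1298 for 271 with DHT in ovariectomized females, 281 to 1523 and 103 to 3075 for 893 with estradiol against DHT in ovariectomized females, and 762 to 2870 and 45 to 6220 for 1491 in castrated males on DHT against intact males. No paired analysis was possible because each animal number occurs in 1 group only.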

Other observations

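Cyp7b1, a male-biased oxysterol hydroxylase gene chosen after its values were seen, split several groups, and its low animals had low C9. In ovariectomized females on estradiol, animals 33 and 34 had Cyp7b1 at -2.57 and -2.92 and the lowest C9 of the group, at -0.97 and -1.23, while the other animals had Cyp7b1 at 0.84 to 1.35. In castrated males on estradiol, animals 41 and 45 had Cyp7b1 at -1.50 and -1.34 and the lowest C9, at -0.34 and -0.90, against Cyp7b1 of 0.92 to 1.72 in the others. Animal 11 was the intact male with the lowest Cyp7b1 (-0.66 against 1.55 to 2.02), C9 (0.21) and C2 (-0.15). A correlation of Cyp7b1 with each member was computed over the 40 livers, but as Cyp7b1 falls into separate clusters it is not a test of the relation and is not given.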
